A study of Homo sapiens with 16 samples.

Results

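The aminoacyl-tRNA synthetases were examined in HepG2, an established human liver tumour cell line that keeps many functions of hepatocytes. The list held 34 symbols, 20 for cytosolic enzymes and 14 for mitochondrial ones, whose symbols end in 2. Members were the probes that carry one of these symbols in the array's probe table, and 30 of the 30968 probes on the array did so, for 29 of the 34 genes. No probe of the symbols DARS, TARS, VARS, FARS2 or VARS2 was analysed here. MARS had 2 probes and each other gene had 1.

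Cells were kept without serum for 7 days with 100 µM oleic acid, 100 µM elaidic acid, 100 µM stearic acid or no added fatty acid. Oleic and elaidic acid are the cis and the trans isomer of 1 monounsaturated fatty acid, and stearic acid is the saturated acid of equal chain length. Each group had 4 samples, described in the labels as biological replicates, each measured on 2 technical replicate arrays that the deposited table gives as 1 intensity. Values below are log2 intensities after quantile normalisation between samples, called levels, and differences between them are called log2 changes. The intensity of a probe also depends on its sequence, so levels were compared between samples and never between genes. In a bulk extract, fewer cells of a type and less RNA per cell cannot be told apart.

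An aminoacyl-tRNA synthetase joins an amino acid to its tRNA and so supplies the ribosome with charged tRNA. The cytosolic and the mitochondrial ribosomes draw on separate sets of enzymes, all encoded in the nucleus, while GARS and KARS each encode both the cytosolic and the mitochondrial form. Several cytosolic enzymes sit in a multisynthetase complex on the scaffold proteins AIMP1, AIMP2 and EEF1E1. Many cytosolic synthetase genes are known targets of ATF4, the transcription factor that is made when amino acids run short or the endoplasmic reticulum is stressed, and which binds C/EBP-ATF response elements.

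The letters of that element were searched for in RefSeq promoter windows (GRCh38.p14) that run from 250 bases before to 50 bases after each gene's start. The motif was TGATGNAAN on either strand. Of the 34 members 28 had a window, and 8 of these held the motif, 7 of 16 cytosolic members (43.8%) and 1 of 12 mitochondrial members (8.33%). Over all 35116 windows the share was 3.61%, and over all 27305 genes with a window it was 4.45%. A match is a description of the sequence and not a measured binding site. The fragments are shown because the genes that carry them are described as a group further on. They are written 5′ to 3′ on the strand of the gene, with the motif or its reverse complement in capitals.
AARS, chr16:70289676-70289704, minus strand: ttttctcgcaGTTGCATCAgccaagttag
CARS, chr11:3057408-3057436, minus strand: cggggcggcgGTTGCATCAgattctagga
GARS, chr7:30594834-30594862, plus strand: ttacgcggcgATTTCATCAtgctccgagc
IARS, chr9:92293693-92293721, minus strand: ttttcagcgcGTTGCATCAcctccgtgcg
MARS, chr12:57488053-57488081, plus strand: gccggttccgGTTGCATCAgcgagggatt
NARS, chr18:57621804-57621832, minus strand: ctacgctctcTGATGCAACgccggaatcg
TARS, chr5:33440956-33440984, plus strand: gcgcctttcgATTGCATCAgctggtccag
YARS2, chr12:32756076-32756104, minus strand: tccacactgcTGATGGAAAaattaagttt
In AARS, CARS, IARS and MARS the letters in capitals are identical, and those of NARS are their reverse complement.

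The labels number the arrays, and these numbers form 2 separate ranges, called A and B here; what the numbers stand for is not stated. Range A held 10 samples, namely every control and every oleic acid sample plus replicates 2 and 4 of elaidic acid. Range B held the other 6, replicates 1 and 3 of elaidic acid and every stearic acid sample. The numbers of control replicate 4 lie apart from the others of range A, and its correlation with the range B samples was 0.919 to 0.943, against 0.804 to 0.930 for the other control samples. Median intensity was lowest in control replicate 1 (19.95) and oleic acid replicate 4 (20.7), and ran up to 72.8 in range A and from 45.8 to 76.1 in range B. Results are therefore given over all 16 samples and also with array number range as a block. The block gives the difference within range A for elaidic acid against control or oleic acid, and within range B for elaidic against stearic acid. Stearic acid shares no range with control or oleic acid, so with the block those contrasts rest on elaidic acid as the link between ranges. Of the hepatocyte markers with a probe, TF had the lowest intensity of any sample, 75.96, and APOA1 the highest, 65613. Of the markers of other cell types, PTPRC, PECAM1, DCN, VWF and KRT7 had medians of 9.17 to 21.9, while CD14, CDH5, COL1A1 and COL1A2 had medians of 64.1 to 1545. The summed intensity of 9 such markers was 1366 to 2790 in control, 1361 to 2758 under oleic acid, 1929 to 2700 under elaidic acid and 1723 to 2539 under stearic acid. That of 7 hepatocyte markers was 15307 to 75317 in control, 15269 to 49073 under oleic acid, 59680 to 164146 under elaidic acid and 117894 to 156985 under stearic acid. The part of these differences in the results below was not tested.

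The mean level of the synthetases separated the 2 array ranges. For the 17 cytosolic members tested it was 8.24 to 9.37 in the 10 samples of range A and 9.75 to 10.2 in the 6 samples of range B. For the 12 mitochondrial members it was 5.74 to 6.97 in range A and 7.23 to 7.68 in range B. The lowest mean of both classes was that of oleic acid replicate 4, and the next lowest cytosolic mean that of control replicate 1, the 2 samples of lowest median intensity. By group the cytosolic mean was 8.94 ± 0.46 (SD, n = 4 in every group) in control, 8.76 ± 0.35 under oleic acid, 9.38 ± 0.50 under elaidic acid and 10.04 ± 0.10 under stearic acid. The mitochondrial mean was 6.62 ± 0.36, 6.37 ± 0.45, 6.92 ± 0.51 and 7.57 ± 0.14 in the same order.

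**Figure D1:**
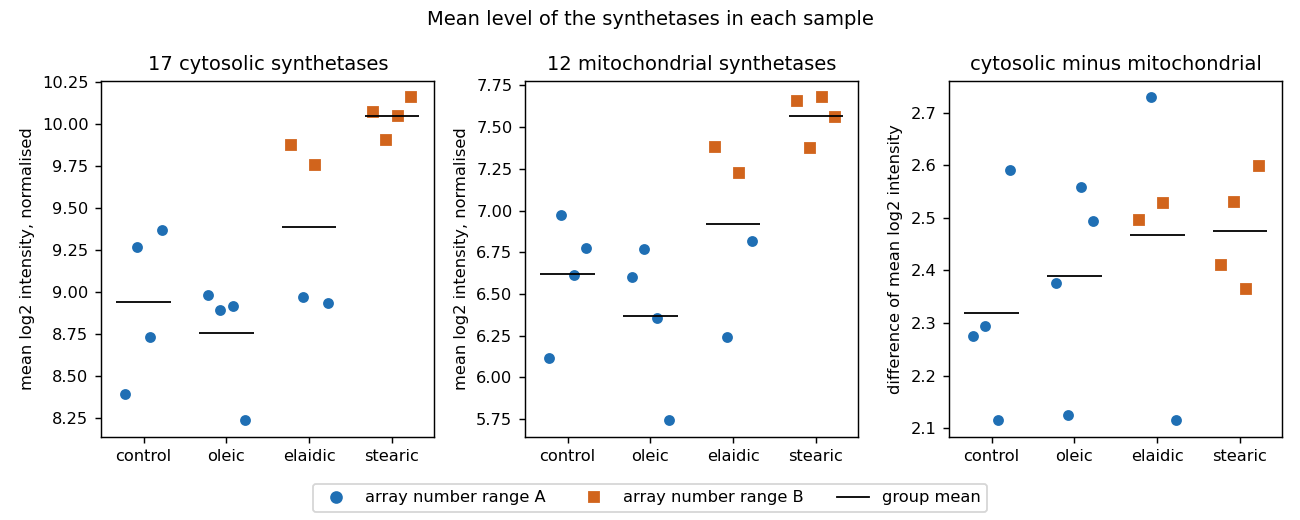
Mean normalised log2 intensity of the 17 cytosolic synthetases, of the 12 mitochondrial ones and their difference (y axes) in each sample by group (x axis); blue circles are samples of array number range A, orange squares samples of range B, and lines are group means. In the first 2 panels the range B samples, at 9.75 to 10.2 and 7.23 to 7.68, lie above all range A samples, and in the third all groups overlap. The mitochondrial mean includes dim members, among them LARS2, NARS2 and IARS2, whose intensities were under 21.9 in 6, 5 and 3 samples.

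The 2 classes moved together across the samples. The cytosolic mean exceeded the mitochondrial mean by 2.32 ± 0.20 (SD, n = 4 in every group) in control, 2.39 ± 0.19 under oleic acid, 2.47 ± 0.26 under elaidic acid and 2.48 ± 0.11 under stearic acid. The ranges of this difference overlapped between all groups, from 2.11 to 2.59 in control, 2.12 to 2.56 under oleic acid, 2.12 to 2.73 under elaidic acid and 2.36 to 2.60 under stearic acid. The mitochondrial mean, here and above, includes members that are not well measured where dim. Intensity was under 21.9 in 6 samples for LARS2, 5 for NARS2, 3 for IARS2, 2 for PARS2 and 1 each for EARS2 and TARS2. IARS2 reached the lowest intensity of these. The level of IARS2 was 2.95 in control replicate 1, 1.29 in oleic acid replicate 4 and 1.96 in elaidic acid replicate 2. That elaidic acid sample gave the 2.73, so this extreme rests in part on IARS2.

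The elaidic acid group, which alone spans both ranges, shows how far the members differed between ranges under 1 treatment. In 13 of 17 cytosolic and 6 of 12 mitochondrial members both range B samples were above both range A samples, 65.5% of the members together, while 30.4% of all probes did so. In 4 members, FARSA, YARS, SARS2 and TARS2, both range B samples were below. The median of range B minus range A was 0.87 for cytosolic members, 0.67 for mitochondrial members and -0.13 for all probes. It was 2.45 for RARS, 2.28 for NARS2 and 2.01 for EPRS. For IARS2, the mitochondrial isoleucine enzyme, it was 4.06, which rests on an intensity of 2.49 in elaidic acid replicate 2, below the medians of the 5 dim markers, so the size of that difference is not well measured. In all, 9 members had an intensity under 21.9, the highest of those marker medians, in at least 1 sample, namely CARS, EARS2, EPRS, IARS2, LARS2, NARS2, PARS2, TARS2 and WARS. Over all 16 samples the range B samples were all above the range A samples for 12 of 29 members (41.4%) and for 12.1% of all probes. Those 12 were AARS, CARS, EPRS, GARS, HARS, MARS, NARS, SARS, AARS2, EARS2, IARS2 and YARS2.

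With elaidic acid, the trans isomer, no synthetase passed the test against control. Of 17 cytosolic members 15 had log2 changes above 0, with a median of 0.46, and 8 of 12 mitochondrial members did, with a median of 0.48; over all 22939 probes tested the median was -0.10 and 43.5% were above 0. Within range A, where 2 elaidic acid samples meet 4 control samples, the medians were 0.045 and 0.022, with 10 of 17 and 7 of 12 above 0, and 52.2% of all probes above 0. limma called 0 of 29 members at an adjusted p under 0.05 (Benjamini-Hochberg over all probes), against 0.323% of all probes, and 1 of 29 had an unadjusted p under 0.05, against 14.3% of all probes. The 2 groups overlapped in all 29 members, while 6.5% of all probes did not overlap. Within range A it called 0 of 29 members, against 0.0392% of all probes, and 0 had an unadjusted p under 0.05, against 6.53%. With array weights in place of equal weights 10 members and 4656 probes were called. The cytosolic median was 0.18 without control replicate 1 and 0.26 without replicate 1 or replicate 3 of elaidic acid, and the mitochondrial median 0.14, 0.077 and 0.23 in that order. The reference genes, 4 of 5 of which were above 0, had a median of 0.62, or 0.31 within range A.

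**Figure D2:**
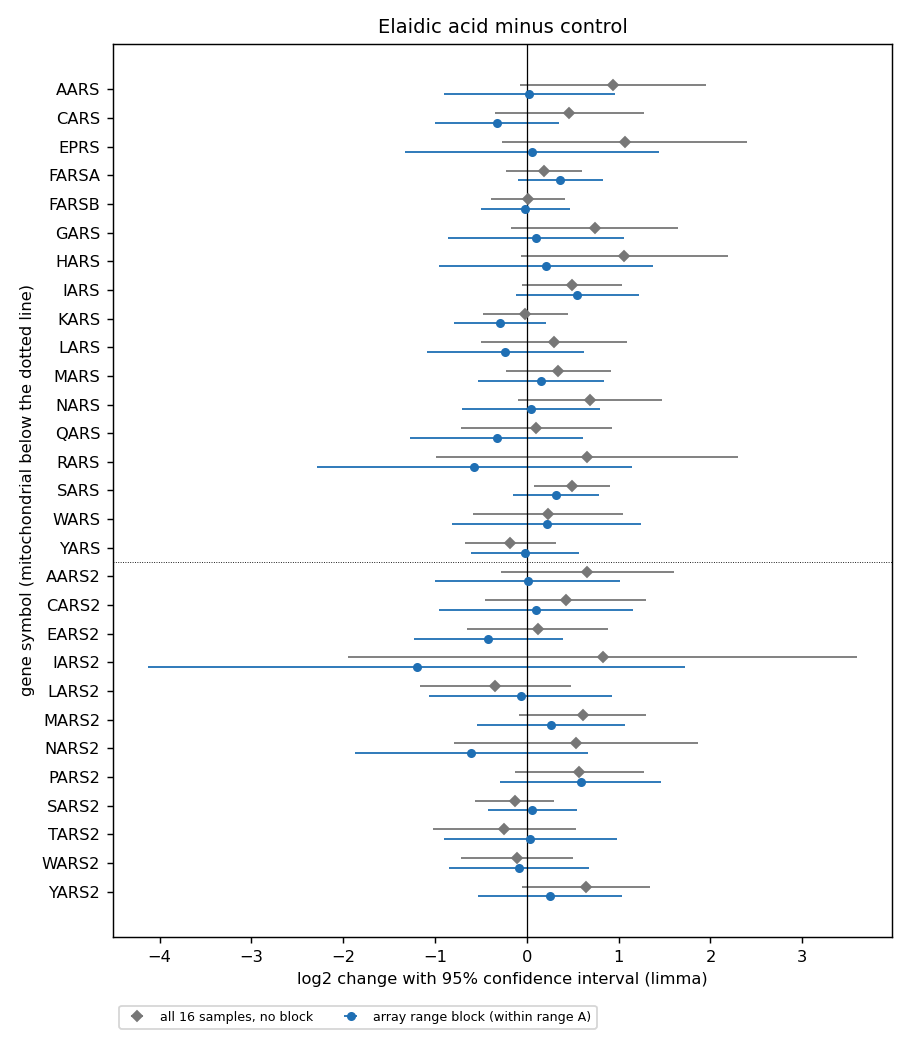
Log2 change of each synthetase (y axis, by symbol) with elaidic acid against control (x axis, log2, with 95% confidence intervals of limma); grey diamonds are all 16 samples without a block, blue circles the fit with array number range as a block, which is the difference within range A. Without the block 23 of 29 members lie above 0 and with it 17 of 29, and every interval of the blocked fit includes 0.

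SARS, the cytosolic serine enzyme, had the smallest p of the members in that comparison. Its levels were 7.42, 7.68, 8.05 and 7.93 in control replicates 1 to 4, 7.88, 7.79, 7.68 and 7.57 with oleic acid, 8.04 and 8.14 with elaidic acid in range A, 8.49 and 8.38 with elaidic acid in range B and 9.10, 9.02, 9.07 and 9.14 with stearic acid. In range A the elaidic acid samples lay at the top of the control values, just overlapping control replicate 3, in range B they were above all control samples, and the stearic acid samples were the highest of all. The log2 change with elaidic acid against control was 0.49 ± 0.19 (SE, n = 4 per group; adjusted p = 0.28) and 0.32 ± 0.22 within range A. Every elaidic acid sample was above every oleic acid sample, by 0.53 ± 0.19, which did not pass (adjusted p = 0.2). SARS was the 1 member of 29 whose groups did not overlap there, against 7.08% of all probes. With stearic acid SARS was 1.31 ± 0.19 above control and passed (adjusted p = 9.8e-04), and with the range block the value was 0.97 ± 0.31 (adjusted p = 0.44).

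**Figure D3:**
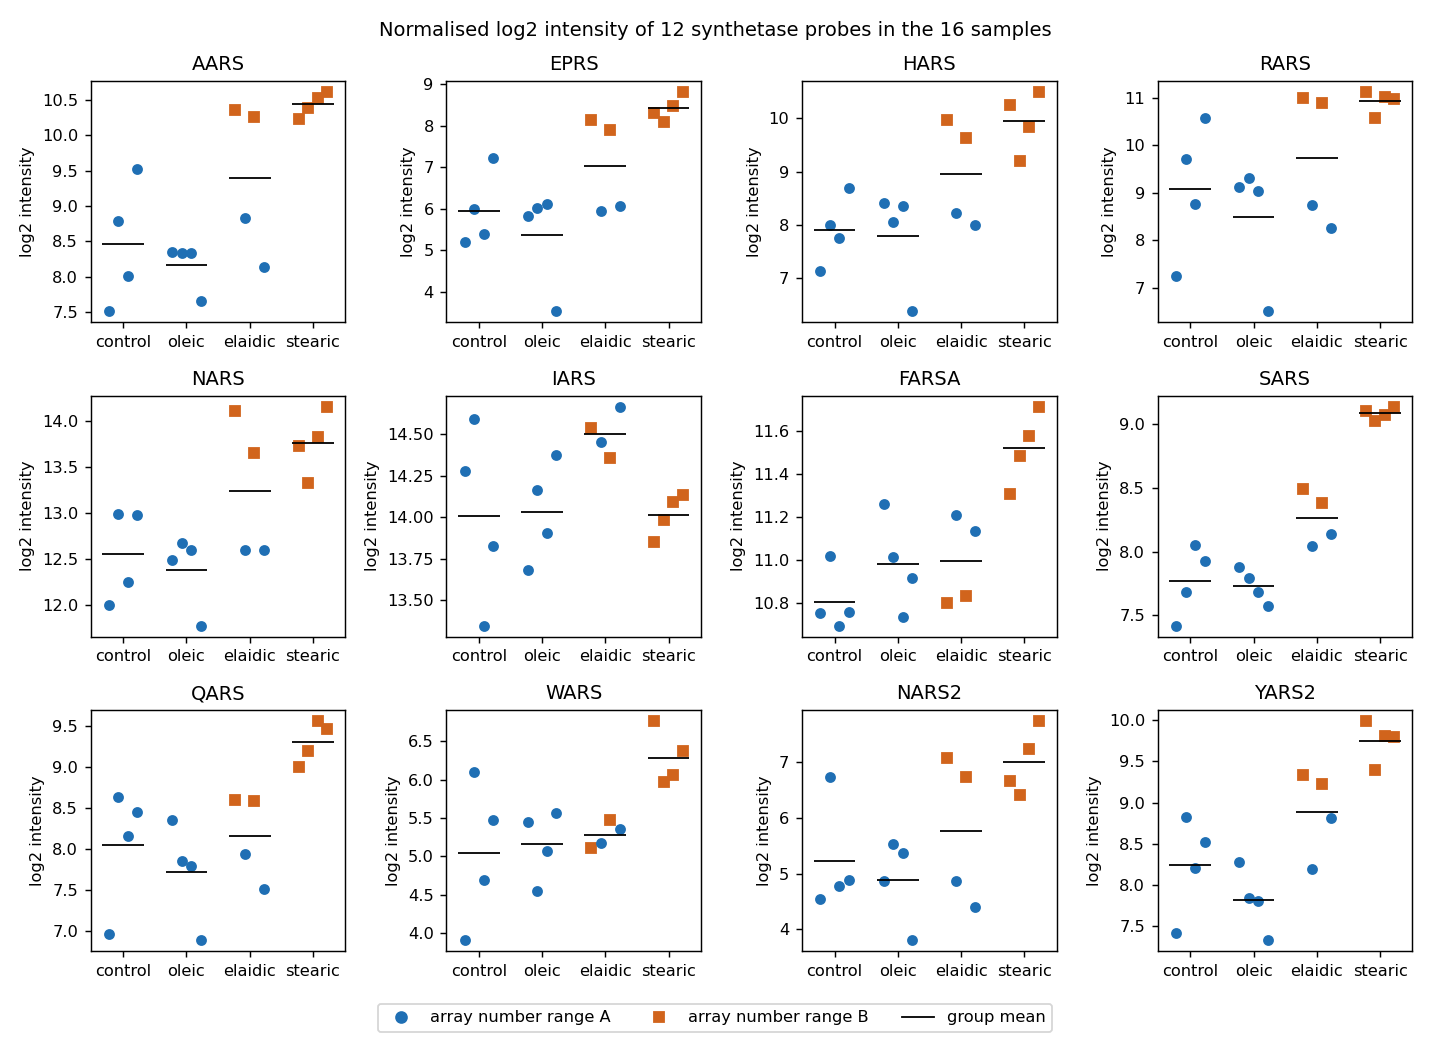
Normalised log2 intensity (y axis, a separate scale per panel) of 12 synthetase probes in the 16 samples by group (x axis); blue circles are samples of array number range A, orange squares samples of range B, and lines are group means. AARS, EPRS, HARS and NARS are higher in every range B sample than in every range A sample, while for FARSA and WARS the 2 elaidic acid samples of range B lie below the 4 stearic acid samples of that range and among the range A samples.

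Of the 8 synthetases of the multisynthetase complex 7 were tested. In 2 of the 7, EPRS and MARS, all range B samples were above all range A samples. That order held in 8 of 17 cytosolic members and 12.1% of all probes. In 6 of the 7, all but IARS, the elaidic acid samples of range B were above those of range A. That held in 13 of 17 cytosolic members and 30.4% of all probes. The 7 had a median log2 change of 0.34 with elaidic acid against control, or -0.23 within range A with 3 of 7 above 0. EPRS, the fused enzyme for glutamate and proline, had levels of 5.20, 5.99, 5.38 and 7.23 in control replicates 1 to 4, 5.82, 6.02, 6.11 and 3.53 with oleic acid, 5.95 and 6.07 with elaidic acid in range A, 8.14 and 7.90 with elaidic acid in range B and 8.29, 8.08, 8.47 and 8.81 with stearic acid. Its range B samples were at 7.90 or above and its range A samples at 7.23 or below, with oleic acid replicate 4 far below the rest. RARS, the arginine enzyme, had levels of 7.24, 9.71, 8.76 and 10.56 in control replicates 1 to 4, 9.12, 9.32, 9.03 and 6.51 with oleic acid, 8.74 and 8.25 with elaidic acid in range A, 11.004 and 10.90 with elaidic acid in range B and 11.12, 10.56, 11.02 and 10.98 with stearic acid. Here control replicate 4 reached the lowest stearic acid sample, and control replicate 1 and oleic acid replicate 4 were the lowest samples. For elaidic acid against control the log2 change was 1.06 ± 0.63 for EPRS and 0.65 ± 0.77 for RARS (SE, n = 4 per group), and within range A 0.06 ± 0.65 and -0.57 ± 0.80.

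QARS, the glutamine enzyme of the complex, stood apart from EPRS and RARS in range B. Its levels were 6.97, 8.63, 8.17 and 8.46 in control replicates 1 to 4, 8.35, 7.86, 7.80 and 6.89 with oleic acid, 7.94 and 7.52 with elaidic acid in range A, 8.60 and 8.59 with elaidic acid in range B and 9.001, 9.20, 9.56 and 9.47 with stearic acid. Both elaidic acid samples of range B were below the 4 stearic acid samples of that range. KARS, the lysine enzyme that also serves mitochondria, had levels of 10.39, 10.74, 10.66 and 10.69 in control replicates 1 to 4, 10.54, 10.45, 10.48 and 10.37 with oleic acid, 10.09 and 10.57 with elaidic acid in range A, 11.04 and 10.72 with elaidic acid in range B and 11.04, 10.93, 11.39 and 11.39 with stearic acid. Elaidic acid replicate 2 was the lowest of all samples, and the stearic acid samples and elaidic acid replicate 1 were the highest. The log2 change of stearic acid against control was 1.25 ± 0.39 for QARS, which passed (adjusted p = 0.027), and 0.57 ± 0.22 for KARS, which did not (adjusted p = 0.06).

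MARS, the methionine enzyme of the complex, had levels at its brighter probe of 11.40, 12.33, 11.86 and 12.17 in control replicates 1 to 4, 12.15, 11.79, 11.55 and 10.98 with oleic acid, 12.01 and 12.18 with elaidic acid in range A, 12.54 and 12.40 with elaidic acid in range B and 12.94, 12.71, 12.83 and 13.16 with stearic acid. The highest range A sample and the lowest range B sample were 12.33 and 12.40, so the ranges barely separated. The dimmer MARS probe was left out of the test because its intensity was -1.14 in oleic acid replicate 4. Its intensity in the other range A samples reached at most 27.6, apart from 90.04 in control replicate 4, and in the 6 range B samples it was 120.5 to 176.4. IARS, the isoleucine enzyme of the complex, had levels of 14.28, 14.59, 13.35 and 13.82 in control replicates 1 to 4, 13.68, 14.16, 13.90 and 14.38 with oleic acid, 14.45 and 14.67 with elaidic acid in range A, 14.54 and 14.36 with elaidic acid in range B and 13.85, 13.98, 14.09 and 14.13 with stearic acid. All 4 elaidic acid samples were above all 4 stearic acid samples, in both array ranges, and in range A both were above all oleic acid samples and inside or above the control values. Its log2 change with elaidic acid was 0.49 ± 0.25 against control, 0.47 ± 0.25 against oleic acid and 0.49 ± 0.25 against stearic acid, and 0.55 ± 0.31, 0.53 ± 0.31 and 0.43 ± 0.31 with the range block, and none passed. LARS, the leucine enzyme of the complex, ranged from 8.69 to 10.58 with a median of 9.71, and its log2 change with elaidic acid against control was 0.29 ± 0.37, or -0.23 ± 0.40 within range A.

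Of the scaffold proteins of the complex AIMP1 and EEF1E1 were tested. SCYE1, an older symbol of AIMP1, had a log2 change of 0.69 ± 0.49 and EEF1E1 one of 1.14 ± 0.81 with elaidic acid against control, and -0.11 ± 0.50 and -0.15 ± 0.84 within range A. Neither passed there. With stearic acid against control both did, at 1.73 ± 0.49 and 2.40 ± 0.81, against 29.8% of all probes called and 15% called higher. With the range block the values were 0.13 ± 0.71 and -0.18 ± 1.19.

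Cytosolic enzymes outside the complex were split between those that followed the ranges and those that did not. AARS, the alanine enzyme, had levels of 7.51, 8.78, 8.01 and 9.52 in control replicates 1 to 4, 8.35, 8.34, 8.34 and 7.66 with oleic acid, 8.83 and 8.14 with elaidic acid in range A, 10.36 and 10.26 with elaidic acid in range B and 10.22, 10.39, 10.52 and 10.61 with stearic acid. HARS, the histidine enzyme, had levels of 7.14, 7.99, 7.74 and 8.70 in control replicates 1 to 4, 8.41, 8.04, 8.35 and 6.37 with oleic acid, 8.21 and 7.99 with elaidic acid in range A, 9.98 and 9.62 with elaidic acid in range B and 10.26, 9.21, 9.84 and 10.50 with stearic acid. In both genes the 2 elaidic acid samples of range B lay with the stearic acid samples, and those of range A lay inside the control values. The log2 change with elaidic acid against control was 0.94 ± 0.48 for AARS and 1.06 ± 0.53 for HARS (SE, n = 4 per group), and within range A 0.027 ± 0.43 and 0.21 ± 0.54.

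NARS, the asparagine enzyme, had levels of 11.998, 12.99, 12.24 and 12.98 in control replicates 1 to 4, 12.49, 12.67, 12.59 and 11.77 with oleic acid, 12.59 and 12.60 with elaidic acid in range A, 14.11 and 13.65 with elaidic acid in range B and 13.72, 13.33, 13.83 and 14.16 with stearic acid. CARS, the cysteine enzyme, had levels of 5.13, 5.83, 5.84 and 6.27 in control replicates 1 to 4, 5.41, 5.85, 6.08 and 5.43 with oleic acid, 5.35 and 5.53 with elaidic acid in range A, 7.06 and 6.98 with elaidic acid in range B and 7.48, 7.23, 6.77 and 7.02 with stearic acid. Again the range B samples of both acids lay together above range A, and the elaidic acid samples of range A were inside the control values. GARS, the glycine enzyme of both compartments, had levels of 7.08, 8.38, 8.09 and 8.22 in control replicates 1 to 4, 8.31, 7.91, 7.96 and 6.48 with oleic acid, 8.30 and 7.78 with elaidic acid in range A, 9.43 and 9.22 with elaidic acid in range B and 9.21, 9.31, 9.03 and 9.03 with stearic acid. Elaidic acid replicate 1 was the highest of all 16 samples, and control replicate 1 and oleic acid replicate 4 were the lowest. The log2 change with elaidic acid against control was 0.69 ± 0.37 for NARS, 0.46 ± 0.38 for CARS and 0.74 ± 0.43 for GARS, and 0.045 ± 0.35, -0.33 ± 0.32 and 0.097 ± 0.45 within range A.

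FARSA, the catalytic subunit of the phenylalanine enzyme, behaved otherwise. Its levels were 10.75, 11.02, 10.69 and 10.76 in control replicates 1 to 4, 11.26, 11.01, 10.73 and 10.92 with oleic acid, 11.21 and 11.14 with elaidic acid in range A, 10.80 and 10.83 with elaidic acid in range B and 11.31, 11.49, 11.58 and 11.71 with stearic acid. The elaidic acid samples of range B were lower than those of range A, and the stearic acid samples were the highest of all 16. In range A both elaidic acid samples were above all control samples, as for 1 of the 29 members and 7.17% of all probes. FARSB, its partner subunit, ranged only from 7.76 to 8.53 over all samples. WARS, the tryptophan enzyme, which interferon is known to induce, had levels of 3.90, 6.10, 4.69 and 5.47 in control replicates 1 to 4, 5.44, 4.55, 5.07 and 5.57 with oleic acid, 5.17 and 5.35 with elaidic acid in range A, 5.10 and 5.47 with elaidic acid in range B and 6.76, 5.96, 6.05 and 6.37 with stearic acid. Its elaidic acid samples did not separate by range, and those of range B were below the stearic acid samples. YARS, the tyrosine enzyme, ranged from 7.99 to 8.98 with a median of 8.30 and had log2 changes of -0.18 ± 0.23 with elaidic acid and -0.06 ± 0.23 with stearic acid against control.

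Among the mitochondrial enzymes, YARS2 had the smallest p for elaidic acid against control. YARS2, for tyrosine, had levels of 7.41, 8.83, 8.21 and 8.52 in control replicates 1 to 4, 8.28, 7.85, 7.81 and 7.33 with oleic acid, 8.19 and 8.81 with elaidic acid in range A, 9.33 and 9.23 with elaidic acid in range B and 9.99, 9.40, 9.80 and 9.80 with stearic acid. MARS2, for methionine, had levels of 6.76, 7.63, 6.06 and 6.83 in control replicates 1 to 4, 6.55, 6.74, 6.67 and 7.001 with oleic acid, 6.68 and 7.50 with elaidic acid in range A, 8.10 and 7.43 with elaidic acid in range B and 8.25, 7.72, 8.24 and 8.02 with stearic acid. PARS2, for proline, had levels of 5.34, 5.87, 6.42 and 5.93 in control replicates 1 to 4, 6.27, 6.17, 5.94 and 4.66 with oleic acid, 6.24 and 6.70 with elaidic acid in range A, 6.29 and 6.59 with elaidic acid in range B and 7.06, 7.09, 6.99 and 6.54 with stearic acid. The stearic acid samples were the 4 highest for YARS2 and, with 1 elaidic acid sample among them, for MARS2. For MARS2 and PARS2 elaidic acid replicate 4, of range A, was above 1 or both range B samples of its group, and for YARS2 it was below them. The log2 change with elaidic acid against control was 0.65 ± 0.33, 0.61 ± 0.33 and 0.57 ± 0.33 (SE, n = 4 per group; adjusted p = 0.38, 0.4 and 0.42), and within range A 0.26 ± 0.37, 0.27 ± 0.38 and 0.59 ± 0.41.

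AARS2, EARS2, IARS2 and NARS2 differed mainly between the array ranges. AARS2, for alanine, had levels of 7.08, 8.47, 7.56 and 8.93 in control replicates 1 to 4, 7.83, 8.35, 8.04 and 6.85 with oleic acid, 8.11 and 7.92 with elaidic acid in range A, 9.20 and 9.45 with elaidic acid in range B and 9.05, 8.98, 9.51 and 8.99 with stearic acid. EARS2, for glutamate, had levels of 5.95, 6.18, 5.63 and 6.45 in control replicates 1 to 4, 6.40, 5.79, 5.29 and 4.63 with oleic acid, 5.71 and 5.56 with elaidic acid in range A, 6.74 and 6.67 with elaidic acid in range B and 7.001, 6.77, 6.96 and 6.76 with stearic acid. Their range B samples were all above their range A samples, narrowly for AARS2. IARS2, for isoleucine, had levels of 2.95, 6.15, 5.64 and 6.65 in control replicates 1 to 4, 6.01, 6.52, 5.30 and 1.29 with oleic acid, 1.96 and 6.34 with elaidic acid in range A, 8.49 and 7.92 with elaidic acid in range B and 8.62, 8.06, 8.41 and 8.70 with stearic acid. NARS2, for asparagine, had levels of 4.55, 6.73, 4.78 and 4.89 in control replicates 1 to 4, 4.87, 5.53, 5.38 and 3.80 with oleic acid, 4.86 and 4.40 with elaidic acid in range A, 7.09 and 6.74 with elaidic acid in range B and 6.66, 6.41, 7.24 and 7.74 with stearic acid. For IARS2 the samples of lowest level were oleic acid replicate 4, elaidic acid replicate 2 and control replicate 1, with intensities of 1.24, 2.49 and 5.17, and for NARS2 control replicate 2 was as high as the range B samples. Within range A the log2 change with elaidic acid against control was 0.008 ± 0.47 for AARS2, -0.42 ± 0.38 for EARS2, -1.20 ± 1.37 for IARS2 and -0.60 ± 0.59 for NARS2.

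For the remaining 5 mitochondrial members the samples of the 2 ranges overlapped. CARS2 ranged from 6.52 to 9.15 with a median of 8.59, SARS2 from 8.02 to 8.74 with a median of 8.44, and WARS2 from 5.39 to 7.06 with a median of 6.37. TARS2 ranged from 5.31 to 7.15 with a median of 5.79 and LARS2 from 3.92 to 5.50 with a median of 4.55. None of these 5 passed in any of the 6 contrasts without the block. HARS2 and RARS2, mitochondrial enzymes outside the list, had log2 changes of -0.078 ± 0.36 and 0.036 ± 0.24 with elaidic acid against control, and did not pass.

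With oleic acid, the cis isomer, 14 of 17 cytosolic and 11 of 12 mitochondrial members were below control, by a median of -0.16 and -0.25, while the median of all probes was 0.013. All 8 samples were in range A. limma called 0 of 29 members and 0 of all probes (0%), and 0 of 29 members had an unadjusted p under 0.05, against 2.62% of all probes. The groups overlapped in all 29 members, while 1.23% of all probes did not overlap. Single samples moved these medians. The cytosolic median was -0.010 without oleic acid replicate 4, -0.24 without oleic acid replicate 3, and -0.35, -0.068 and -0.041 when control replicate 1, 2 or 4 was left out. The mitochondrial median was -0.031 without oleic acid replicate 4, -0.15 without control replicate 2 or 4 and -0.43 without oleic acid replicate 2 or control replicate 1. The largest values below 0 were -0.58 ± 0.63 for EPRS (95% interval -1.92 to 0.76), -0.57 ± 0.77 for RARS (-2.22 to 1.07) and -0.57 ± 1.30 for IARS2 (-3.34 to 2.20). For the members that varied least the interval was narrower, from -0.45 to 0.37 for SARS, -0.42 to 0.39 for FARSB and -0.45 to 0.41 for SARS2.

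**Figure D4:**
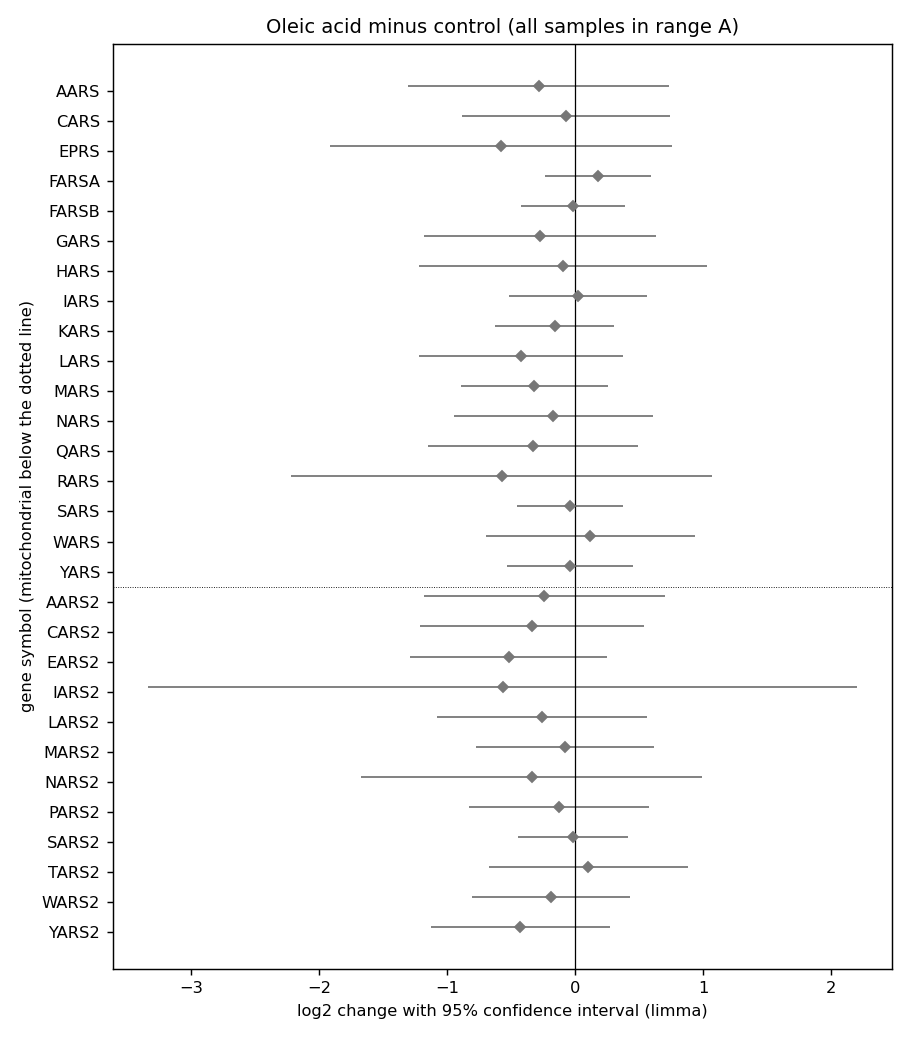
Log2 change of each synthetase (y axis, by symbol) with oleic acid against control (x axis, log2, with 95% confidence intervals of limma over all 16 samples); all 8 samples compared were in array number range A. Of 29 members 25 lie below 0 and all intervals include 0.

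Between the trans and the cis isomer, at matched dose and time, 16 of 17 cytosolic and 9 of 12 mitochondrial members were higher with elaidic acid. The medians were 0.54 and 0.69, against -0.13 for all probes, of which 42.9% were above 0. limma called 0 of 29 members, against 0.318% of all probes, and 8 of 29 had an unadjusted p under 0.05, against 18.9% of all probes. The smallest adjusted p was that of YARS2, 0.16, at 1.08 ± 0.33 (SE, n = 4 per group), or 0.69 ± 0.37 within range A. Within range A the medians were 0.19 and 0.15, with 15 of 17 and 9 of 12 members above 0 and 50.8% of all probes above 0, and limma called 0 members there, against 0.0218% of all probes. In range A both elaidic acid samples were above all oleic acid samples in 2 of 29 members, IARS and SARS, against 6.29% of all probes. The interval within range A was -0.11 to 0.83 for SARS and -0.62 to 1.24 for AARS. With array weights 15 members were called, and 8953 probes. The mitochondrial median over all samples was 0.31 without oleic acid replicate 4 and 0.45 without elaidic acid replicate 1.

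Between the trans isomer and the saturated acid, the samples that share array range B can be set side by side. There 5 of 17 cytosolic and 2 of 12 mitochondrial members were higher with elaidic acid, with medians of -0.20 and -0.31, while 51.9% of all probes were above 0 and their median was 0.016. Both elaidic acid samples were below all 4 stearic acid samples in 11 of 29 members, against 12.3% of all probes, and above them in 2 of 29, IARS and LARS, against 11.1%. The 11 were FARSA, FARSB, MARS, QARS, SARS, WARS, EARS2, SARS2, TARS2, WARS2 and YARS2. limma called 0 of 29 members within range B, against 0.00436% of all probes, and 2 of 29 had an unadjusted p under 0.05, against 5.82% of all probes. These 2 were FARSA at -0.70 ± 0.22 (95% interval -1.17 to -0.24; adjusted p = 0.48) and SARS at -0.65 ± 0.22 (-1.12 to -0.18; adjusted p = 0.56). WARS was at -0.9996 ± 0.48 and QARS at -0.71 ± 0.44, while AARS at -0.13 ± 0.43, HARS at -0.15 ± 0.54, RARS at 0.029 ± 0.80 and AARS2 at 0.19 ± 0.47 lay within their standard errors of 0. With 2 samples against 4 an exact permutation test cannot give a p below 0.0667.

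**Figure D5:**
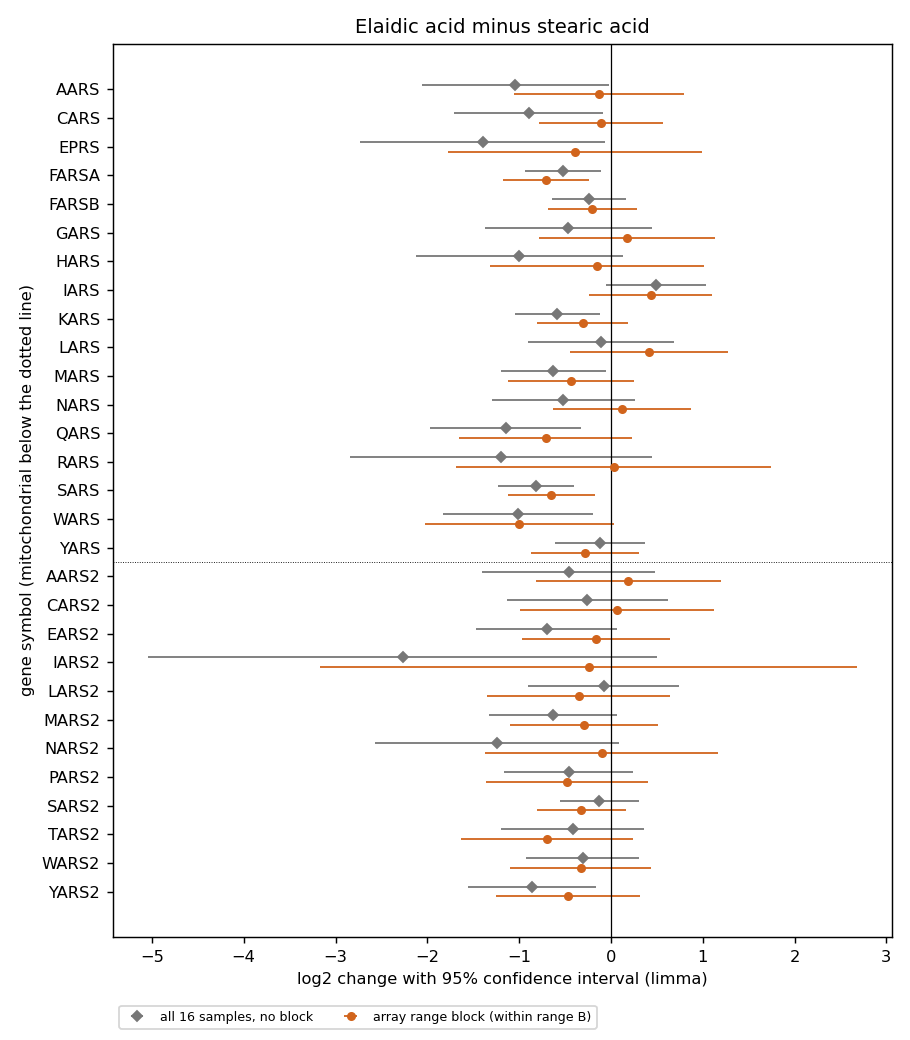
Log2 change of each synthetase (y axis, by symbol) with elaidic acid against stearic acid (x axis, log2, with 95% confidence intervals of limma); grey diamonds are all 16 samples without a block, orange circles the fit with array number range as a block, which is the difference within range B. With the block the intervals of FARSA and SARS lie below 0 and those of the other 27 members include 0.

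Over all samples 28 of 29 members were lower with elaidic than with stearic acid, with medians of -0.63 for cytosolic and -0.46 for mitochondrial members and 0.074 for all probes, of which 54.8% were above 0. limma called 0 of 29, against 0.397% of all probes, and 10 of 29 had an unadjusted p under 0.05, against 14.5% of all probes. SARS came closest, at -0.82 ± 0.19 (SE, n = 4 per group; adjusted p = 0.076). The groups did not overlap in 9 of 29 members, against 11.9% of all probes; 8 of the 9 were below with elaidic acid, against 7.13% of all probes, and 1, IARS, was above, against 4.72%.

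The mean of both classes was highest with stearic acid, whose samples all lay in range B. Against control 16 of 17 cytosolic and 10 of 12 mitochondrial members were above 0, with medians of 1.21 and 0.93, where all probes had a median of -0.18 and 43.2% were above 0. The groups did not overlap in 17 of 29 members, against 37.6% of all probes, and 20 of 29 had an unadjusted p under 0.05, against 46.1%. limma called 15 of 29 members, all higher, 11 cytosolic and 4 mitochondrial, against 29.8% of all probes called and 15% called higher. Among the 8363 probes whose mean level lay between the lower and upper quartile of the members (6.26 to 9.11), 35.5% were called and 18% were called higher. The members called were AARS, CARS, EPRS, FARSA, GARS, HARS, MARS, NARS, QARS, SARS, WARS, MARS2, NARS2, PARS2 and YARS2. Each group lay in 1 array range of its own, so fatty acid and array range cannot be told apart in these 2 groups, and in 11 of the 15 the elaidic acid samples of range B were also above those of range A, as in 8 of the 14 members not called and 30.4% of all probes. The 4 without that order were FARSA, WARS, MARS2 and PARS2. With the range block limma called 0 of 29 members and 0% of all probes, 11 of the 15 stayed above 0, and 2 of 29 members had an unadjusted p under 0.05, against 7.45% of all probes. The count of 15 was 7 without control replicate 1, 9 without stearic acid replicate 1 and 9 without stearic acid replicate 4, while the count over all probes went from 6825 to 3593, 3564 and 4440.

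The largest called values were 2.46 ± 0.63 for EPRS, 2.06 ± 0.53 for HARS and 1.98 ± 0.48 for AARS (SE, n = 4 per group; adjusted p = 0.012, 0.012 and 0.0094). With the range block these were 0.45 ± 0.91, 0.36 ± 0.77 and 0.16 ± 0.61. The order of the members was different with the block, where WARS at 1.22 ± 0.68, FARSA at 1.07 ± 0.31, PARS2 at 1.06 ± 0.58 and SARS at 0.97 ± 0.31 had the largest values, and none passed (adjusted p = 0.4 for FARSA and 0.44 for SARS). Of the 15 called members the sign turned for CARS, at -0.22, for GARS, at -0.082, for NARS, at -0.078, and for NARS2, at -0.50. Of the members not called it turned from above to below 0 for LARS, at -0.65, RARS, at -0.60, AARS2, at -0.18, EARS2, at -0.25, and IARS2, at -0.96, and from below to above 0 for YARS, LARS2 and SARS2. Without the block IARS2 had a change of 3.10 ± 1.30 and RARS one of 1.85 ± 0.77, neither of which passed (adjusted p = 0.078 and 0.077), and with it the values were -0.96 ± 1.93 and -0.60 ± 1.13. IARS was at 0.004 ± 0.25, and SARS2 at -0.0047 ± 0.20. Of 12 listed reference genes 5 were tested, and their median was 1.40. Of the 5, 3 were called higher and 1 lower, against 29.8% of all probes called and 15% called higher. With the block their median was 0.45, and 0 were called, against 0% of all probes.

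Oleic acid and stearic acid also share no array range. Of 29 members 20 were called, all lower with oleic acid, 13 cytosolic and 7 mitochondrial, against 39.5% of all probes called and 18.4% called lower. The medians were -1.35 and -1.24, or -0.30 and -0.42 with the range block, where 0 members and 0% of all probes were called. In 22 of 29 members the groups did not overlap, all below with oleic acid, against 44.7% of all probes and 21.2% below, and 22 of 29 had an unadjusted p under 0.05, against 51.4%. Over all probes 56.9% were above 0, against 3 of 29 members. The called members were those called between stearic acid and control together with KARS, RARS, AARS2, EARS2 and IARS2. The count was 13 without oleic acid replicate 4, where that over all probes went from 9057 to 4767. With the block the largest values were those of PARS2 at -1.19 ± 0.58, YARS2 at -1.15 ± 0.52 and WARS at -1.10 ± 0.68, while of the called members CARS at 0.15, RARS at 0.028, IARS2 at 0.39 and NARS2 at 0.16 turned sign. Of the members not called LARS turned to 0.22, and IARS, YARS and LARS2 turned from above to below 0.

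The 6 tested cytosolic members with a match to the motif in their promoter window, AARS, CARS, GARS, IARS, MARS and NARS, were all above 0 with elaidic acid against control, with a median of 0.59. Within range A 5 of 6 were above 0 and the median was 0.071. Of the 9 tested cytosolic members with a window and no match 8 were above 0, with a median of 0.23, and within range A 5 of 9 were, with a median of 0.060. With stearic acid against control the medians were 1.21 with the motif and 1.25 without a match, and with the range block 0.020 and 0.38. In elaidic against oleic acid the members with the motif had a median of 0.76, or 0.34 within range A, and those without a match 0.43 and 0.099.

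Other genes of the amino acid response, from a list written with earlier results of these data known, were set beside them. Of 23 tested genes 15 were above 0 with elaidic acid against control, with a median of 0.60, and 18 within range A, with a median of 0.52; 1 was called, against 0.323% of all probes. That gene was TRIB3, a pseudokinase induced by ATF4, which rose by 1.31 ± 0.26 (SE, 4 samples a group; limma, adjusted p = 0.043) and was at 1.17 ± 0.31 within range A, where it did not pass. PHGDH, the first enzyme of serine synthesis, was at 0.97 ± 0.22, and 0.86 ± 0.26 within range A, and EIF4EBP1, an inhibitor of translation initiation, at 0.78 ± 0.19 and 0.68 ± 0.23. ATF4 itself, given for its role and not by the rule for named genes, was at -0.38 ± 0.26 and -0.40 ± 0.32. With stearic acid 12 of the 23 were called higher, against 15% of all probes, and 1 lower, and 0 were called with the range block. Of the same 23 genes 9 were above 0 with oleic acid, with a median of -0.029. The median of the 29 synthetases within range A, 0.036, was thus below the 0.52 of this list, and the difference between the lists was not tested.

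Genes that act before or after the synthetases gave no call with elaidic acid against control. Of the list of tRNA editing, amidation and release 8 genes were tested, with a median of 0.079, or -0.36 within range A. The smallest p were those of MTFMT at 0.75 ± 0.43, AARSD1 at -0.25 ± 0.19 and ELAC2 at 0.60 ± 0.64. The 6 cytosolic elongation and termination factors tested had a median of 0.43, or 0.17 within range A, with ETF1, a release factor, at 0.71 ± 0.31, EEF2K, the kinase that restrains elongation, at -0.83 ± 0.47 and EEF1D at 0.67 ± 0.39. The 8 mitochondrial translation factors tested had a median of -0.11 in both fits, with MRRF at -0.34 ± 0.22, MTRF1L at 0.30 ± 0.23 and TUFM at 0.38 ± 0.33. With stearic acid against control 29.8% of all probes were called and 15% were called higher. There 2 of the first list were called higher, MTFMT and PET112L, and 1 lower, AARSD1. Of the elongation list 4 were called higher, EEF1D, EEF2, ETF1 and GSPT1. Of the mitochondrial factors 1 was called higher, TUFM, and 2 lower, MTIF2 and MRRF. With the range block 0 of each list were called, and 0% of all probes.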

How the data were processed

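Total RNA of 16 HepG2 cultures was hybridised to single-colour Cy5 arrays. The deposited values are linear intensities that the authors made from 2 technical replicate arrays per sample, per the labels. Values below 0 show background subtraction, and unequal medians (19.95 to 76.1) show that samples were not scaled to a common median. Whether they were scaled in another way, how background was taken and how arrays were combined is not given in the sources used here. Groups came from the labels. Probes with a value of 0 or less in 1 or more samples, 8029 in all (25.9%), were dropped, and 22939 were taken to log2 and quantile normalised. limma 3.58.1 in R 4.3.3 was fitted on all 16 samples with group as the term, over 6 contrasts, with Benjamini-Hochberg adjustment over all probes at 0.05. The fit was also run on simulated data with independent noise per probe and no array range effect. That run therefore cannot show how the fit behaves when array ranges differ. For a gene with several probes the brightest was used. Nothing in the labels says that cultures were handled separately beyond calling them biological replicates, and the number of arrays limits precision.

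Array number range as a block was an alternative, as were other scalings, filters, variance settings, replicate number as a block and leaving out each sample. Members, pathway lists and tests were chosen with earlier results of these data known. Values in every sample are given for members that passed in any contrast, for the 5 cytosolic and 3 mitochondrial members of smallest p for elaidic acid against control, and for GARS and KARS; from each pathway list, genes that passed or the 3 of smallest p in that contrast could be named. Gene names are those of the platform annotation, which can be old, and 17397 of 30968 probes had a symbol. Promoter windows were matched by current RefSeq symbol.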

Additional observations from a re-analysis of the deposited data

Results flagged for a closer look

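In 7 of 116 groups of 4 samples, 1 sample lay far from the other 3, by a gap over range above Dixon's 95% critical value; chance gives about 1 group in 20. Oleic acid replicate 4 was low for AARS at 7.66, with the others at 8.34 to 8.35, for EPRS at 3.53, with the others at 5.82 to 6.11, and for RARS at 6.51, with the others at 9.03 to 9.32. That sample had the lowest mean of both enzyme classes and the next to lowest median intensity. AARS2 was high in stearic acid replicate 3, at 9.51 against 8.98 to 9.05. LARS2 was low in control replicate 4, at 4.18 against 5.02 to 5.16. NARS2 was high in control replicate 2, at 6.73 against 4.55 to 4.89. TARS2 was high in control replicate 3, at 7.15 against 5.35 to 5.61.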

How the results depend on the processing

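Array number range as a block moved most results, and the cause was not tested. For elaidic acid against control the cytosolic and mitochondrial medians were 0.045 and 0.022 with it, the mitochondrial median 0.046 with control replicate 4 also left out, and the medians -0.16 and -0.072 with the 2 dimmest samples, control replicate 1 and oleic acid replicate 4, also left out. For stearic acid against control they were 0.19 and 0.27, then 0.29 and 0.17, then 0.11 and 0.35, with 0 members called each time; the cytosolic minus mitochondrial median was -0.082, and -0.24 without the dimmest samples. For elaidic against oleic acid the mitochondrial median was 0.15, also without control replicate 4, and the medians 0.027 and 0.079 without the dimmest samples. For elaidic against stearic acid the cytosolic median was -0.20 and the class difference 0.1025 in all 3 fits. For oleic against stearic acid the medians were -0.30 and -0.42 and the class difference 0.12, also without control replicate 4, then -0.27, -0.50 and 0.23 without the dimmest samples, with 0 called each time. These added fits, leaving out control replicate 4 or the dimmest samples, were chosen after seeing the data.

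Among the members called, with the block, stearic acid against control turned sign for CARS (-0.22), GARS (-0.082), NARS (-0.078) and NARS2 (-0.50), without control replicate 4 for CARS (-0.055) and NARS2 (-0.62), and without the dimmest samples for AARS (-0.16), CARS (-0.44), GARS (-0.37), NARS (-0.26) and NARS2 (-0.73). Of the 8 members followed for elaidic acid against control, that change turned without the dimmest samples for HARS (-0.039), AARS (-0.29), NARS (-0.14) and YARS2 (-0.020). Among the members called, oleic against stearic acid turned for CARS (0.15), RARS (0.028), IARS2 (0.39) and NARS2 (0.16), with the same values without control replicate 4, and without the dimmest samples for CARS (0.24), GARS (0.20), HARS (0.014), NARS (0.11), RARS (0.69), AARS2 (0.25), EARS2 (0.032), IARS2 (1.55) and NARS2 (0.53).

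With array weights 10 members were called for elaidic acid against control, 15 against oleic acid and 2 against stearic acid. Of all probes 4656, 8953 and 1030 were called in the same order. For elaidic against stearic acid 1 member was called with median scaling, with an offset of 50, with the dimmest 50% of probes left out or without the dimmest samples, where 129, 582, 294 and 302 of all probes were called, against 91 in the reported fit. Without scaling, stearic acid against control gave 9 members called, with 3099 of all probes, and medians of 1.78 and 1.40. Elaidic against stearic acid then gave a cytosolic median of -1.15, and oleic against stearic acid medians of -2.06 and -1.81. The class difference was 0.081 for stearic acid against control with the dimmest 50% left out, and for elaidic against oleic acid 0.056 with the offset and 0.17 without the dimmest samples. The offset gave a mitochondrial median of -0.79 and a class difference of -0.37 for oleic against stearic acid.

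Leaving out each sample in turn gave mitochondrial medians of 0.077 to 0.56 and class differences of -0.098 to 0.18 for elaidic acid against control. Class differences were -0.29 to 0.17 for elaidic against oleic acid and -0.29 to 0.049 for elaidic against stearic acid. For stearic acid against control 7 to 18 members were called, while the count over all probes was 3564 to 8207. For oleic against stearic acid 13 to 21 members were called, while the count over all probes was 4767 to 9939.

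Over all probes, 74 were called for elaidic acid against control, with 0 to 4656 over the alternatives that keep every sample, 73 against oleic acid, with 0 to 8953, and 91 against stearic acid, with 0 to 1030. For stearic acid against control 6825 were called, with 0 to 10585, and for oleic against stearic acid 9057, with 0 to 13525. For oleic acid against control 0 were called, with 1 under array weights.

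Replicate numbers are shared across groups. Over 24 same-numbered pairs the correlation of deviations from the group mean was -0.46 to 0.36, and 7 exceeded 0.1. For elaidic acid these deviations also differ by array range. Control replicate 1 was at -0.46 and -0.43 with its replicates 1 and 3, of range B, and 0.43 and 0.40 with replicates 2 and 4, of range A. The correlations therefore cannot settle whether same-numbered cultures were paired. With replicate number as a block 0 members were called in the 3 elaidic acid contrasts and in oleic acid against control. For stearic acid against control 13 were called, and for oleic against stearic acid 17. Every group holds the same replicate numbers, so by design this block leaves log2 changes and class medians the same and alters only their errors. Over all probes that block gave 28 calls for elaidic acid against control, 4 against oleic acid and 0 against stearic acid, 5283 for stearic acid against control and 7360 for oleic against stearic acid.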
